A study of Mus musculus with 491 samples.

Results

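Isl1, Pou4f1, Prdm12, Ebf1, Ebf2 and Ebf3, genes for transcription factors that mark the making of sensory neurons, were followed through single cells of the embryonic mouse ear region, 237 from replicate 1 and 254 from replicate 2. The 6 members were chosen by name, and each had 1 row among the 19494 genes with a usable row. A cell is said to hold a gene when its FPKM (fragments scaled by transcript length and by the size of the library) is 1 or more. All 6 passed the filter on low values, which asked for 5% of cells to hold the gene and left 10241 genes, members included.

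The cells were tdTomato+ cells sorted from otic vesicle and periotic tissue of E10.5 embryos of genotype Pax2-Cre/+;Ai14-tdTomato/+, which all cells share. The Ai14 allele turns on tdTomato in cells that have had Cre from the Pax2-Cre transgene and in their descendants, so the sort takes whatever tissues that transgene has marked, not the ear alone. The labels name replicate 1 (237 cells on plates 1 to 3) and replicate 2 (254 cells on plates 4 to 6), and do not say whether a replicate is an embryo, a litter or a day. P-values therefore rest on how closely differences between groups repeat in these 2 replicates, which may be technical. They do so over many genes. The test (limma) pulls the spread of each gene toward a trend fitted over all genes tested. An SE below is thus not the gene's own spread between the replicates, and can be smaller than it. There is no treatment and no mutant. The groups set against each other are cells with and without Neurod1, early, middle and late groups of the Neurod1-positive cells, and classes of cells.

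In the developing inner ear, cells of the otic epithelium that turn on the basic helix-loop-helix factors Neurog1 and Neurod1 leave the epithelium as neuroblasts and become the sensory neurons of the cochleovestibular ganglion. Isl1, a LIM-homeodomain factor, and Pou4f1, a POU-homeodomain factor also called Brn3a, are widely shared by cranial and spinal sensory neurons. Prdm12 is a PR-domain zinc finger protein best known for its part in pain-sensing neurons of spinal and cranial ganglia. Ebf1, Ebf2 and Ebf3 belong to the early B-cell factor (COE) family, which acts in neurons as they differentiate and migrate, and in B cells, fat and other mesenchymal tissue.

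Depth in reads is unknown, since the files give no counts. Genes with an FPKM of at least 1 numbered 2552 to 6403 per cell (median 4513), with medians of 4471 in replicate 1 and 4572 in replicate 2. Actb, Gapdh, Eef1a1 and Rplp0 were above 0 in every cell, while Hprt was listed at 0 in 27.5% and Tbp in 29.9% of cells, so a cell without a member is one in which the gene is listed at 0 or below 1. Transfer of transcripts between wells was inferred from the values, and the labels do not mention it. In both replicates, 19 directed pairs of row positions had rare transcripts in common at the same column. By this rule 337 cells were given a source well and 154 cells had none. How the sharing arose was not tested. Many but not all results that low values could set are given also with values under 10% of the source well's value set to 0 (corrected for transfer). Intervals beside shares of cells are 95% exact binomial intervals and cover counting error only.

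A set of 80 marker genes, with the 6 members left out, split the cells into 8 clusters, of which 2 were otic. The classes were 64 differentiating neuron-like, 42 early neuroblast-like, 152 otic epithelium-like, 129 neural tube progenitor-like, 41 surface ectoderm-like and 23 mesenchyme-like cells. A further cluster of 40 cells, left without a cell type name, had the neurofilament genes Nefl and Nefm, Tubb3 and Tlx2 among its 10 leading genes and is called the Nefl-led cluster after the first of them. Each of the 8 markers of differentiating neurons was held by 50% or more of its cells. Mesenchyme markers had a summed median of 0 FPKM in the Nefl-led, differentiating neuron-like and early neuroblast-like cells, against 152 FPKM in mesenchyme-like cells. Of 8 early neuroblast markers, 7 were held by 50% or more of the early neuroblast-like cells. Their 10 leading markers also included Lhx1 and Lhx5, listed for hindbrain interneurons. The hindbrain interneuron markers summed there to a median of 1.47 and up to 729 FPKM. Whether the class mixes cell types was not tested. No label gives a cell type, and classes and maturation score come from other genes of the same cells, so the tests below ask how the members follow those genes.

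The 6 members lie on 5 chromosomes in GRCm38, by the GENCODE M21 annotation, and all are protein-coding. Isl1 (ENSMUSG00000042258) spans chr13:116298281-116309689 on the minus strand, Pou4f1 (ENSMUSG00000048349) chr14:104461676-104467999 on the minus strand, and Prdm12 (ENSMUSG00000079466) chr2:31640037-31655795 on the plus strand. Ebf1 (ENSMUSG00000057098) spans chr11:44617317-45008091 on the plus strand, Ebf2 (ENSMUSG00000022053) chr14:67233292-67430918 on the plus strand, and Ebf3 (ENSMUSG00000010476) chr7:137193673-137314445 on the minus strand.

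RefSeq promoter windows of 300 bases (250 before the transcript start and the first 50 of the transcript, build GRCm38.p6) matched 5 of the 6 members, with 2 windows for Ebf1. They were searched on both strands for CANNTG, the general form of the E-box bound by basic helix-loop-helix factors, Neurod1 and Neurog1 among them. This form was taken because the members are set against Neurod1 below, and binding was not tested. Isl1, Pou4f1 and 1 Ebf1 window, which hold an E-box, are shown beside Prdm12, which holds none. Ebf3 and the other Ebf1 window hold none either and are not shown. The sequences run 5′ to 3′ on the strand of the gene, with E-boxes in capitals.
Isl1, GRCm38.p6 chr13:116309639-116309938, minus strand: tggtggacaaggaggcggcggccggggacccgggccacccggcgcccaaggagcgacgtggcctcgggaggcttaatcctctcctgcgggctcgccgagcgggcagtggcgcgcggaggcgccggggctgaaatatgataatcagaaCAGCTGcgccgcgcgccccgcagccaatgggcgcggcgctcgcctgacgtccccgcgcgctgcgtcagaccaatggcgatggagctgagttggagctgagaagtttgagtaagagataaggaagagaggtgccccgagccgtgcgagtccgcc
Pou4f1, GRCm38.p6 chr14:104467950-104468249, minus strand: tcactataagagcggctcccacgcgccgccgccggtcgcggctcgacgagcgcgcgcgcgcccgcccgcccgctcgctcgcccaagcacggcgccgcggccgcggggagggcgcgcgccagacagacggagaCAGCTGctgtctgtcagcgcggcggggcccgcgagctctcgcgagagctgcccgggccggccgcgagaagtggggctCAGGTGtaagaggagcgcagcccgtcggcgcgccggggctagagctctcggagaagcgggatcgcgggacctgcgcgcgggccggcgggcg
Prdm12, GRCm38.p6 chr2:31639787-31640086, plus strand: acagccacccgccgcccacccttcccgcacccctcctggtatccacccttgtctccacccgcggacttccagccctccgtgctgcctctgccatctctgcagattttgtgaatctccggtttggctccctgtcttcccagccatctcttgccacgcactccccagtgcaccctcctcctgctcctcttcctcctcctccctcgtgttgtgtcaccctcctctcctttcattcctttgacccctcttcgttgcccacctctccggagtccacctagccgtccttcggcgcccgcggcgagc
Ebf1, GRCm38.p6 chr11:44619978-44620277, plus strand: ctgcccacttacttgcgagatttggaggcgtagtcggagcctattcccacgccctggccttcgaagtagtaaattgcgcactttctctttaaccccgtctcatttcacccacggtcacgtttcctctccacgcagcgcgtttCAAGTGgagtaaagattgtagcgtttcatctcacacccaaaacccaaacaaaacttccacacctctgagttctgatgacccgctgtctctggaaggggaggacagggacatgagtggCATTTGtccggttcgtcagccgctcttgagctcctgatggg
Isl1 has 1 E-box, CAGCTG, which starts 103 bases before the transcript start. Pou4f1 has 2, CAGCTG at 118 and CAGGTG at 41 bases before the start. The Ebf1 window shown has CAAGTG at 108 bases before and CATTTG at 9 bases after the start, and Prdm12, Ebf3 and the other Ebf1 window have none. Among 32851 RefSeq windows of this length, 72.3% hold CANNTG and 16.3% hold CAGCTG, so a match is common. The form CAGATG, found in 17.2% of all windows, is in no window of the members. No window of the members holds the homeodomain letters TAATTA, found in 5.29% of all windows.

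Isl1 was the most widely held member, in 217 cells (44.2%, 39.7 to 48.7). Ebf1 was held by 198 cells (40.3%), Ebf3 by 154 (31.4%), Ebf2 by 121 (24.6%), Pou4f1 by 98 (20.0%) and Prdm12 by 96 (19.6%). The levels in holders were graded as well. Isl1 holders ran from 1.29 to 1089 FPKM with a median of 111 FPKM, and Prdm12 holders, though few, ran from 1.17 to 642 FPKM with a median of 45.3 FPKM. Pou4f1 and Ebf3 were the low-level members, with medians of 16.6 and 10.13 FPKM in their holders. Corrected for transfer, the holders numbered 176 for Isl1, 162 for Ebf1, 145 for Ebf3, 102 for Ebf2, 83 for Pou4f1 and 71 for Prdm12.

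Holders of every member were mostly Neurod1-positive (FPKM of at least 1 of the factor that drives neuroblast differentiation). Isl1 was held by 165 of 196 Neurod1-positive cells (84.2%, 78.3 to 89.0), against 52 of 295 cells with Neurod1 not detected (17.6%, 13.5 to 22.5). Ebf1 was held by 154 Neurod1-positive cells (78.6%), against 44 of the other cells (14.9%). For Pou4f1 the counts were 86 (43.9%) against 12 (4.07%), the smallest share of any member among cells without Neurod1. Ebf3 was held by 107 (54.6%) against 47 cells (15.9%), Ebf2 by 77 (39.3%) against 44 (14.9%), and Prdm12 by 66 (33.7%) against 30 (10.17%). The number of detected genes per cell hardly differed between the sets (medians of 4580.5 and 4486). With both genes corrected for transfer, 152 cells were Neurod1-positive. They made up 124 of 176 holders of Isl1, 117 of 162 of Ebf1 and 71 of 83 of Pou4f1. For Ebf3 they were 92 of 145 holders, for Ebf2 63 of 102 and for Prdm12 50 of 71.

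Averaged per group and replicate, all 6 members were higher in Neurod1-positive than in Neurod1-undetected cells (limma with the replicate as a block, Benjamini-Hochberg adjusted p below 0.05), where 3.91% of the 10222 genes tested were called higher and 3.52% lower. Isl1 led with a difference of 4.78 on the log2(FPKM + 1) scale (SE 0.29, adjusted p = 4.6e-08), followed by Ebf1 at 3.43 (SE 0.28, adjusted p = 1.5e-06). Pou4f1 differed by 1.61 (SE 0.25, adjusted p = 8.9e-04), Ebf3 by 1.48 (SE 0.25, adjusted p = 0.0019), Prdm12 by 1.28 (SE 0.32, adjusted p = 0.024) and Ebf2 by 0.99 (SE 0.25, adjusted p = 0.023). The median difference of the 6 members was 1.55, against -0.02 over all genes tested. By limma, Ebf2 missed the threshold without the replicate block (adjusted p = 0.053), and Ebf2 and Prdm12 missed it with log2 of the mean FPKM (adjusted p = 0.25 and 0.13) and with no filter (adjusted p = 0.092 and 0.15). With the Neurod1-positive cells limited to early neuroblast-like and differentiating neuron-like cells, Ebf2 missed it too (1.19, adjusted p = 0.090). In the 154 cells with no source well, Isl1 (5.99, adjusted p = 0.018) and Ebf1 (4.27, adjusted p = 0.037) passed in limma, while Pou4f1, Prdm12, Ebf2 and Ebf3 kept their sign at adjusted p of 0.16 to 0.49.

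Isl1 was held by most cells of all 3 neuronal classes. The 40 cells of the Nefl-led cluster ran from 0 to 1089 FPKM with a median of 262 FPKM, and 39 of them held it (97.5%, 86.8 to 99.9). Differentiating neuron-like cells ran from 0 to 693 FPKM with a median of 285 FPKM, and 56 of 64 held it (87.5%). Early neuroblast-like cells ran from 0 to 397 FPKM with a median of 42.7 FPKM, and 27 of 42 held it (64.3%). Outside the neuronal classes the median was 0 FPKM, but 50 of 152 otic epithelium-like cells (32.9%) and 19 of 41 surface ectoderm-like cells (46.3%) held Isl1, up to 273 and 230 FPKM. In order of the mean log2 level, the Nefl-led cluster (7.90) stood above differentiating neuron-like (7.05), early neuroblast-like (3.99), surface ectoderm-like (2.53) and otic epithelium-like cells (1.52), with no overlap between the replicate means of neighbours in that order. The means of otic epithelium-like, mesenchyme-like (0.81) and neural tube progenitor-like cells (0.66) overlapped with their next neighbour.

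Pou4f1 was concentrated in 1 class. Differentiating neuron-like cells ran from 0 to 115 FPKM with a median of 23.5 FPKM, and 52 of 64 held it (81.2%, 69.5 to 89.9). In the Nefl-led cluster 13 of 40 cells held it (32.5%, 18.6 to 49.1), with a median over all its cells of 0 FPKM and a highest value of 30.6 FPKM. Among early neuroblast-like cells 10 of 42 held it (23.8%, 12.05 to 39.5), up to 30.1 FPKM. Otic epithelium-like cells held it in 6 of 152 cells (3.95%, 1.46 to 8.39), at a similar number of detected genes per cell (median 4721, against 4525.5 in differentiating neuron-like cells). The replicate means of the Nefl-led cluster (1.21 and 0.81) and of early neuroblast-like cells (0.97 and 0.87) overlapped, and both lay below those of differentiating neuron-like cells (3.91 and 3.95).

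Prdm12 had the opposite profile and peaked in early neuroblast-like cells, where it ran from 0 to 642 FPKM with a median of 77.6 FPKM and was held by 29 of 42 cells (69.05%, 52.9 to 82.4). Differentiating neuron-like cells held it in 19 of 64 cells (29.7%, 18.9 to 42.4), with a median of 0 and a highest value of 127 FPKM. In the Nefl-led cluster it was held by 3 of 40 cells (7.5%, 1.57 to 20.4) as deposited and by 1 cell corrected for transfer. It was also present in 23 of 152 otic epithelium-like cells (15.1%), up to 304 FPKM, and in 20 of 129 neural tube progenitor-like cells (15.5%), up to 113 FPKM. Of the 14 otic epithelium-like cells that held Prdm12 once corrected for transfer, 3 also held Neurog1 and 2 held Neurod1. In order of mean level, early neuroblast-like cells (replicate means 3.59 and 5.25) and differentiating neuron-like cells (1.55 and 1.42) stood apart from the rest, and the means of otic epithelium-like and neural tube progenitor-like cells overlapped at 0.70 and 0.68.

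**Figure D1:**
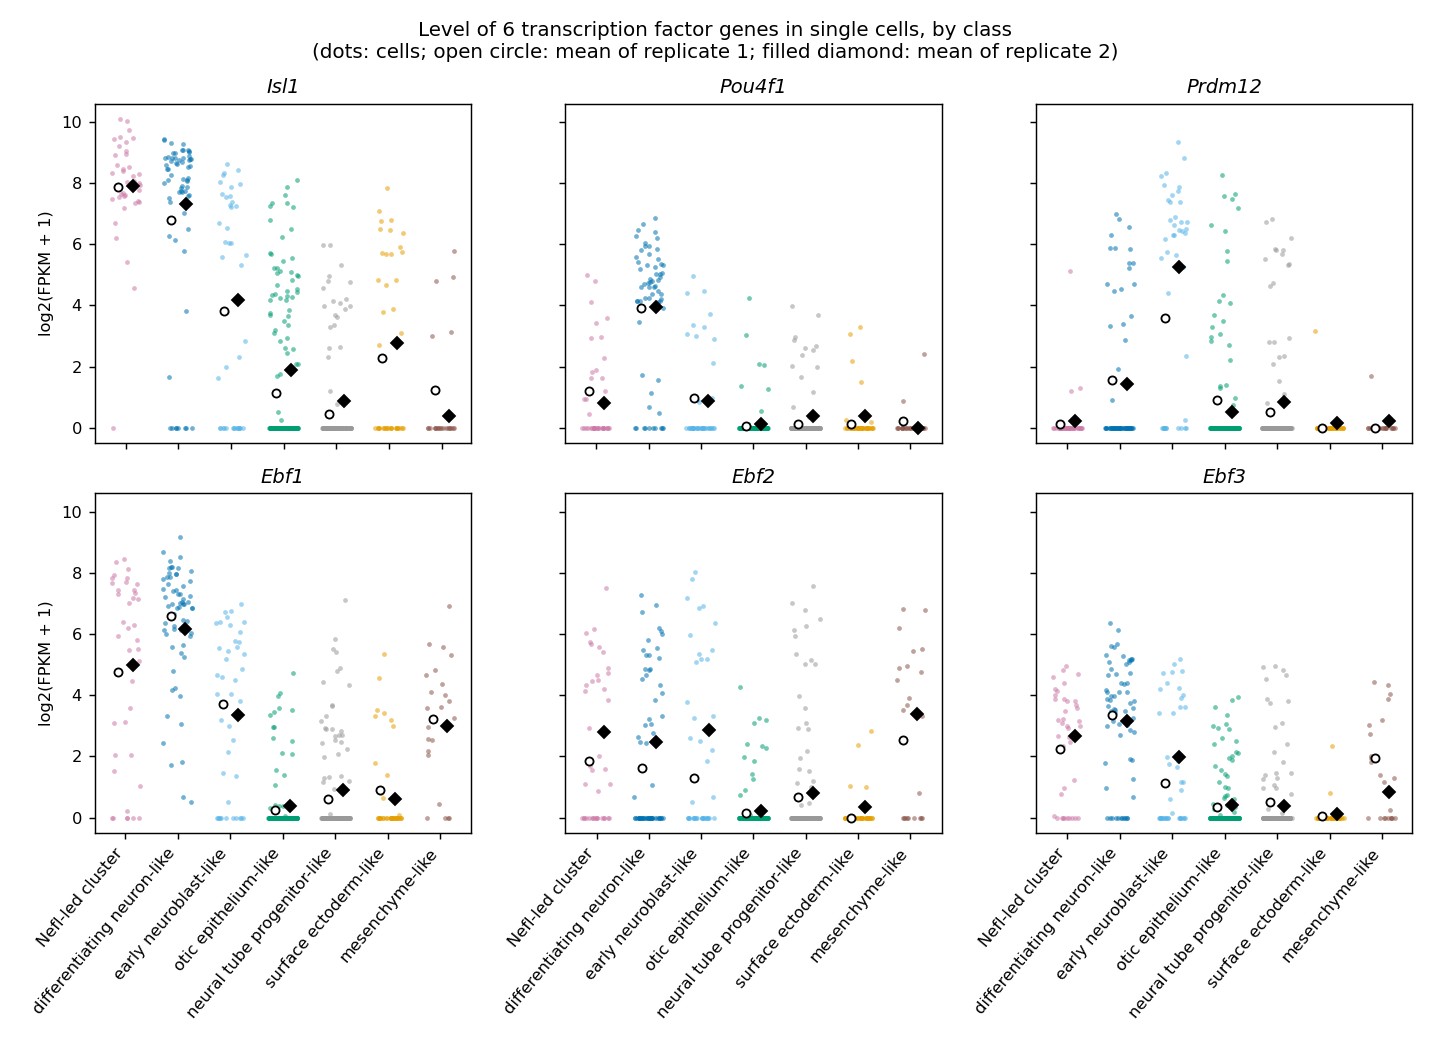
Level of each member in single cells on the log2(FPKM + 1) scale, by class, with cells as dots and the mean of each replicate as an open circle (replicate 1) or a filled diamond (replicate 2). Isl1 and Ebf1 were high in all 3 neuronal classes, Pou4f1 in differentiating neuron-like cells (means of 3.91 and 3.95), and Prdm12 in early neuroblast-like cells (3.59 and 5.25), while Ebf1, Ebf2 and Ebf3 were also held by mesenchyme-like cells.

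The 3 Ebf genes shared the neuronal classes but differed in level. Ebf1 was held by 33 of 40 cells of the Nefl-led cluster (82.5%, median 57.1 FPKM), by 62 of 64 differentiating neuron-like cells (96.9%, median 122 FPKM) and by 30 of 42 early neuroblast-like cells (71.4%, median 15.5 FPKM). Ebf3 followed with 28 (70.0%, median 6.93 FPKM), 51 (79.7%, median 11.296 FPKM) and 20 cells (47.6%, median 0.70 FPKM) of the same classes in the same order. Ebf2 was nearly even among them, in 23 (57.5%), 29 (45.3%) and 19 cells (45.2%), with wide levels in each that reached 179, 154 and 259 FPKM. In otic epithelium-like cells 16 of 152 held Ebf1 (10.53%), 22 held Ebf3 (14.5%) and 11 held Ebf2 (7.24%), and corrected for transfer these were 6, 20 and 3 cells.

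The same 3 genes were the members found in mesenchyme-like cells. Ebf1 was held by 18 of 23 (78.3%, 56.3 to 92.5), Ebf2 and Ebf3 by 13 each (56.5%, 34.5 to 76.8), against 5 cells for Isl1 and 1 each for Pou4f1 and Prdm12. Ebf2 had its highest class mean there (2.96), but its replicate means (2.54 and 3.38) overlapped those of the Nefl-led cluster, which in turn overlapped those of early neuroblast-like and differentiating neuron-like cells. Corrected for transfer, 15, 13 and 13 mesenchyme-like cells held Ebf1, Ebf2 and Ebf3, 1 held Isl1, and none of the holders of an Ebf gene held Neurod1. Surface ectoderm-like cells held Ebf3 in 1 of 41 cells and Prdm12 in 1 of 41 cells, the lowest shares in any class.

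In early neuroblast-like against otic epithelium-like cells, 4 members were higher and 2 did not pass the test, where 1.81% of 10181 genes were called higher by limma and 5.05% lower. Prdm12 differed most, by 3.72 (SE 0.40, adjusted p = 3.8e-05), with replicate means of 3.59 and 5.25 in early neuroblast-like cells and 0.89 and 0.50 in otic epithelium-like cells. Ebf1 was higher by 3.21 (SE 0.39, adjusted p = 1.2e-04), Isl1 by 2.47 (SE 0.43, adjusted p = 0.0021) and Ebf2 by 1.87 (SE 0.40, adjusted p = 0.0096). For Ebf3 the difference was 1.18 (SE 0.41, adjusted p = 0.11) and for Pou4f1 it was 0.82 (SE 0.28, adjusted p = 0.092), and with means per plate both passed (adjusted p = 0.019 and 0.032). The Prdm12 difference was 2.70 without replicate 2 and 4.75 without replicate 1, wider apart than its SE. For Ebf2 it was 1.13 without replicate 2 and 2.62 without replicate 1. In the 12 and 49 cells with no source well only Prdm12 passed in limma (4.2, adjusted p = 0.010).

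In differentiating neuron-like against early neuroblast-like cells, 4 members were higher, where 2.4% of genes were called higher, and Prdm12 was lower, where 0.344% were called lower. Isl1 was higher by 3.05 (SE 0.43, adjusted p = 8.4e-04) and Pou4f1 by 3.01 (SE 0.28, adjusted p = 2.6e-05). Ebf1 was higher by 2.87 (SE 0.39, adjusted p = 6.8e-04) and Ebf3 by 1.70 (SE 0.41, adjusted p = 0.034). Prdm12 fell by 2.93 (SE 0.40, adjusted p = 6.8e-04), with replicate means of 1.55 and 1.42 in differentiating neuron-like cells and 3.59 and 5.25 in early neuroblast-like cells. Ebf2 had a difference of -0.02 (SE 0.40, adjusted p = 0.99), from replicate means of 1.61 and 2.48 in differentiating neuron-like cells against 1.28 and 2.85 in early neuroblast-like cells. With log2 of the mean FPKM, Isl1, Ebf3 and Prdm12 missed the threshold (adjusted p of 0.20, 0.34 and 0.081), and with no filter Ebf3 did (adjusted p = 0.095). In the 18 and 12 cells with no source well limma called 0 of the 10181 genes (634 at an unadjusted p below 0.05), with member differences of 3.11 for Isl1, 3.23 for Pou4f1, 3.14 for Ebf1, 2.0 for Ebf3 and -2.37 for Prdm12.

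Between the Nefl-led cluster and differentiating neuron-like cells, Pou4f1 was the member called, lower by 2.92 in the Nefl-led cluster (difference -2.92, SE 0.28, adjusted p = 2.5e-05), where 0.707% of genes were called lower and 0.953% higher. Its replicate means were 1.21 and 0.81 in the Nefl-led cluster and 3.91 and 3.95 in differentiating neuron-like cells. Ebf1 had a difference of -1.52 (adjusted p = 0.069), Prdm12 -1.30 (adjusted p = 0.15), Ebf3 -0.80 (adjusted p = 0.50), Isl1 0.85 (adjusted p = 0.48) and Ebf2 0.28 (adjusted p = 0.89), none of them past the threshold in limma. Ebf1 passed in limma when corrected for transfer (-1.75, adjusted p = 0.049) and with no filter (adjusted p = 0.046). At clustering resolution 0.6 Isl1 (2.04, adjusted p = 0.032) and Prdm12 (-2.49, adjusted p = 3.1e-04) passed in limma as well. Early neuroblast-like cells had no class of their own at that resolution, so the classes compared were not the same sets of cells. In cells with no source well, 10 and 18 in number, the Pou4f1 difference was -2.59 (adjusted p = 0.28).

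**Figure D2:**
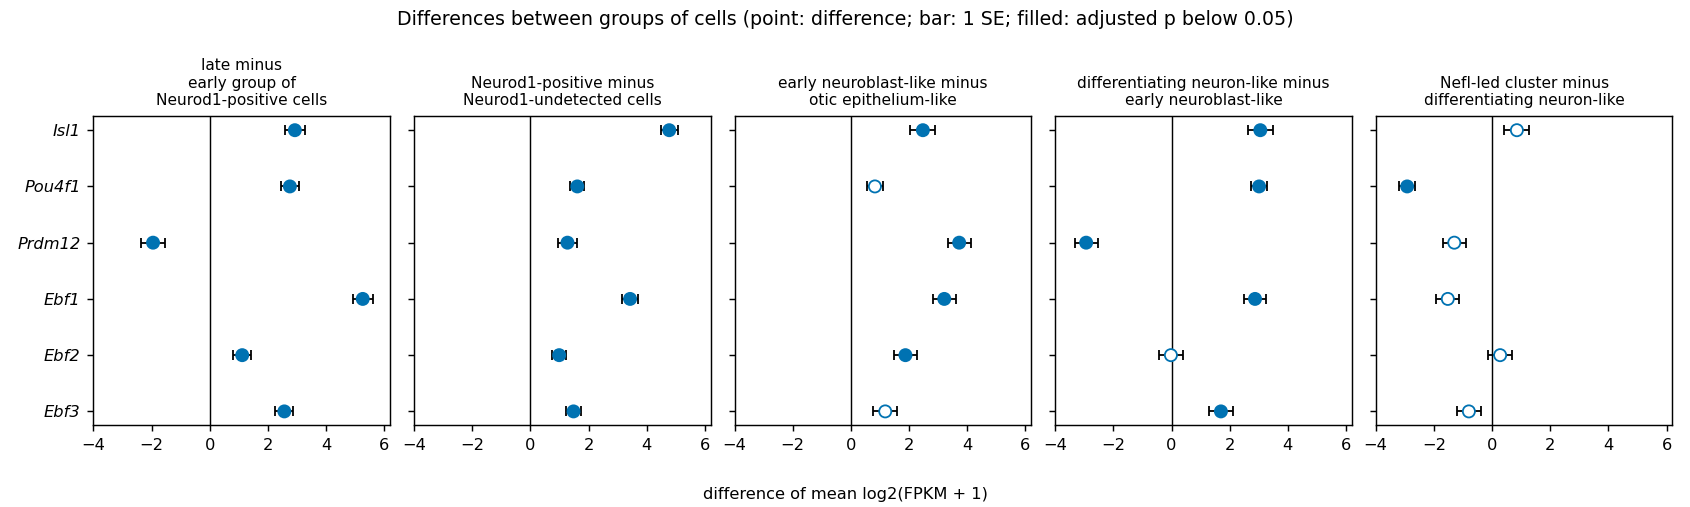
Difference of the mean log2(FPKM + 1) of each member in the 5 comparisons, with bars of 1 SE and filled points where limma's adjusted p was below 0.05. Prdm12 lies left of 0 in the comparison of the late with the early group (-1.95) and of differentiating neuron-like with early neuroblast-like cells (-2.93), where Isl1, Pou4f1, Ebf1 and Ebf3 lie right of it.

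The 196 Neurod1-positive cells were then ordered by a maturation score, the mean scaled level of 18 genes of the neuronal cytoskeleton, growth cone and RNA-binding machinery (among them Stmn2, Tubb3, Gap43, Nefl and Elavl4), with no member in it. Cut into 5 bins of 39 or 40 cells from low to high, the share of cells with Pou4f1 was 10.26, 25.6, 43.6, 64.1 and 75.0%, and the share with Ebf1 was 38.5, 66.7, 87.2, 100 and 100%. Ebf3 was held by 23.1, 46.2, 38.5, 79.5 and 85.0% of the cells, and Ebf2 by 20.5, 35.9, 43.6, 48.7 and 47.5%. Isl1 was high throughout, at 79.5, 76.9, 84.6, 87.2 and 92.5%. Prdm12 went the other way, with 59.0, 43.6, 28.2, 28.2 and 10%. Neurog1, the factor upstream of Neurod1, was held by 28.2, 28.2, 10.26, 17.9 and 2.5% of the same cells, and Stmn2, a gene of the score, by 12.8, 51.3, 87.2, 97.4 and 100%.

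The median position of each gene's holders describes where they lie along the order, not when the gene comes on. A gene held by most cells, as Isl1 was by 165 of 196, falls near the middle. At a scale of 0 for the least and 100 for the most mature cell, the median position of holders was 33.9 for Prdm12 and 33.7 for Neurog1, then 53.8 for Isl1, 59.4 for Ebf2, 60.7 for Ebf1, 68.9 for Pou4f1 and 69.1 for Ebf3. Replicate 1 gave 32.9 for Prdm12, 61.0 for Isl1, 63.8 for Ebf2, 65.1 for Ebf1, 76.5 for Pou4f1 and 71.9 for Ebf3. Replicate 2 gave 34.9, 46.7, 58.4, 58.4, 63.8 and 67.1 for the same genes in the same order. Among the members in deposited values, Prdm12 was thus the lowest and Isl1 the next in both replicates, while Pou4f1 and Ebf3 changed places between them. With holders corrected for transfer, Prdm12 was still the lowest in both, but the order of Ebf2 and Isl1 was not fixed, at 61.0 and 61.7 over all holders, 70.2 and 72.2 in replicate 1 and 58.9 and 56.9 in replicate 2.

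**Figure D3:**
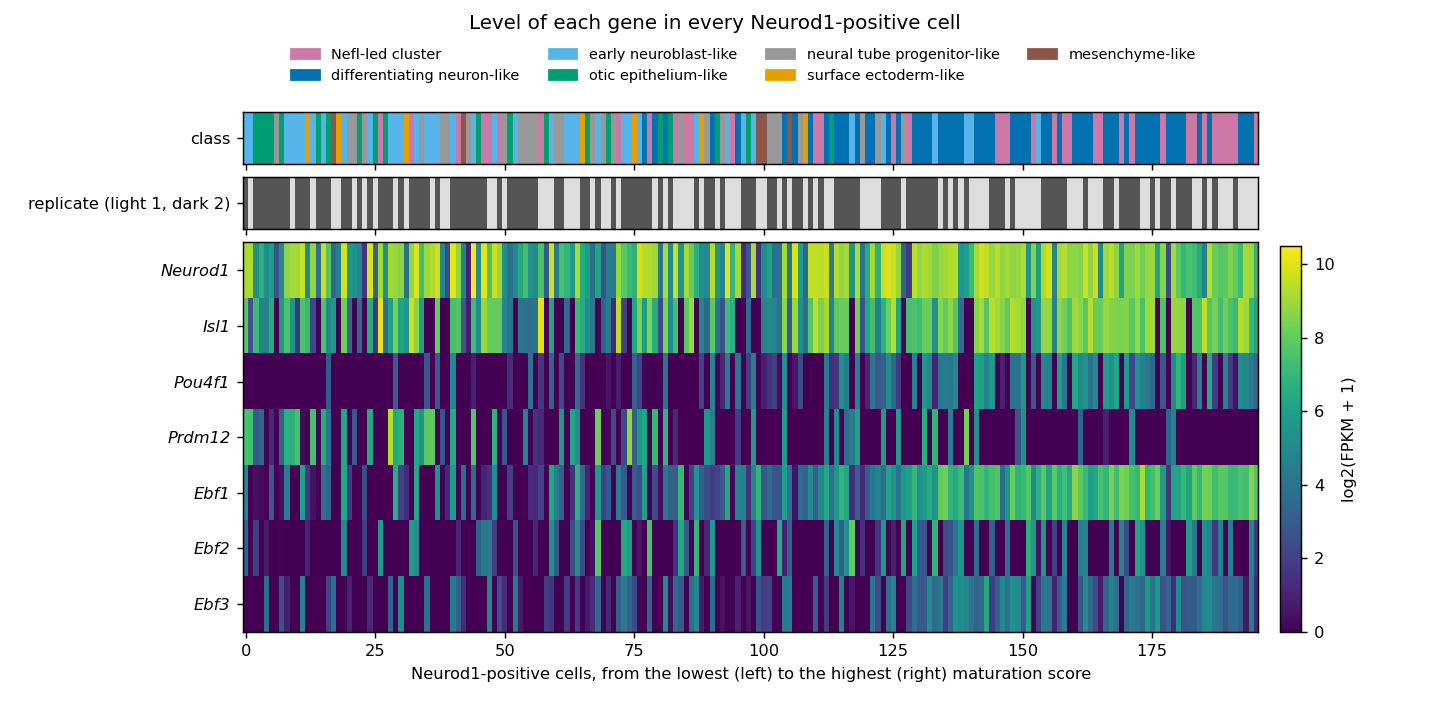
Every Neurod1-positive cell as a column, ordered by maturation score, with its class, its replicate and its level of Neurod1 and the 6 members on the log2(FPKM + 1) scale. Prdm12 is dense on the left (33 of 65 cells of the early group, against 11 of 66 of the late group), and Ebf1, held by all 66 cells of the late group, is continuous on the right.

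The early end of this order is mixed. The first bin held 17 early neuroblast-like, 10 otic epithelium-like, 6 neural tube progenitor-like, 3 surface ectoderm-like, 2 Nefl-led and 1 mesenchyme-like cell, whereas the last bin held 23 differentiating neuron-like and 17 Nefl-led cells. Neurod1 stayed at an FPKM of at least 1 in 152 of the 196 cells when corrected for transfer, 26 of them in each of the first 3 bins and 37 in each of the last 2. The score and the number of detected genes per cell had a Pearson correlation of 0.11 over the 196 cells, which share libraries and plates. Near the boundaries of the early, middle and late groups, 17 cells lay within 0.1 SD of the first and 6 within 0.1 SD of the second.

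With these cells ordered anew in corrected values and only early neuroblast-like and differentiating neuron-like cells kept (97 cells), the profiles of Prdm12 and Pou4f1 were steeper. Prdm12 was held by 89.5, 63.2, 45, 21.1 and 5% of the cells of the 5 bins, and Pou4f1 by 10.53, 52.6, 55, 78.9 and 95%. Ebf1 was held by 52.6, 78.9, 90, 100 and 100%, and Ebf3 by 26.3, 52.6, 55, 89.5 and 95%. Ebf2 had no steady course, at 26.3, 47.4, 60, 31.6 and 40%, and Isl1 was held by 84.2, 57.9, 80, 84.2 and 95%. Each of these bins has 19 or 20 cells. This order was added after the data were seen.

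**Figure D4:**
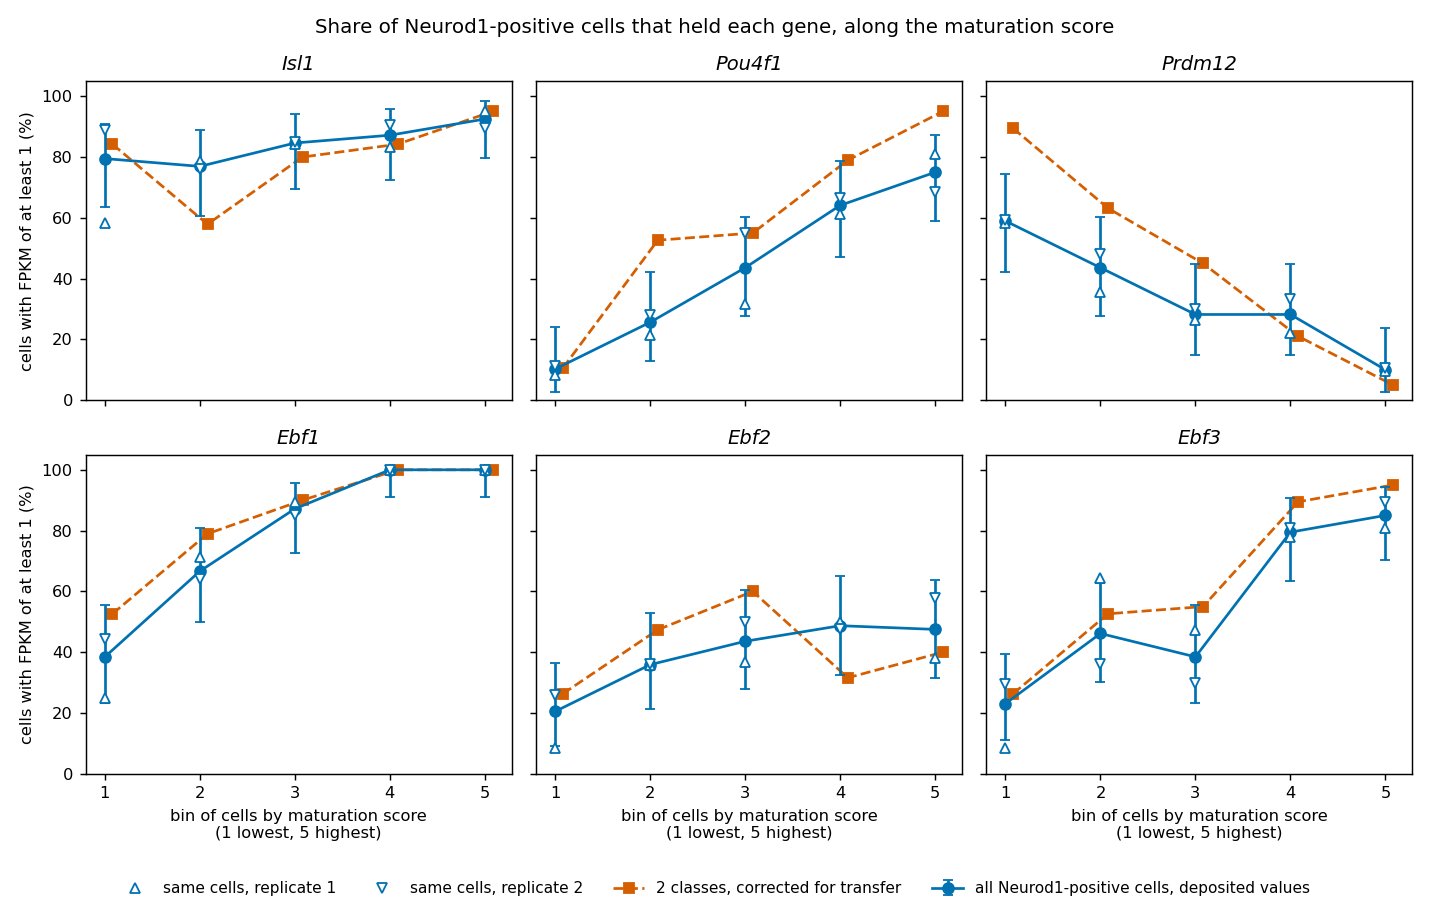
Share of Neurod1-positive cells that held each member, in 5 bins along the maturation score, for all 196 cells as deposited (circles with 95% exact binomial intervals, triangles for each replicate) and for the 97 early neuroblast-like and differentiating neuron-like cells in values corrected for transfer (squares). Prdm12 declines and Pou4f1, Ebf1 and Ebf3 climb in both, while Ebf2 levels off or turns down.

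Cut into early, middle and late groups of 65, 65 and 66 cells and tested over replicates, all 6 members differed between the late and the early group by limma, 5 higher and Prdm12 lower, where 22.5% of 10222 genes were called in either direction. Ebf1 ran from 2.25 to 571 FPKM (median 145) in the 66 late cells and from 0 to 104.5 FPKM (median 0.33) in the 65 early cells, a difference of 5.26 (SE 0.34, adjusted p = 1.4e-07). Isl1 had medians of 286 FPKM in late and 30.7 FPKM in early cells and a difference of 2.93 (SE 0.35, adjusted p = 2.9e-05), although the ranges overlapped, from 0 to 720 and from 0 to 1089 FPKM. Pou4f1 had medians of 16.7 FPKM in late and 0 in early cells and a difference of 2.75 (SE 0.30, adjusted p = 1.3e-05). Ebf3 differed by 2.56 (SE 0.31, adjusted p = 3.2e-05) and Ebf2 by 1.12 (SE 0.31, adjusted p = 0.016). Prdm12 had medians of 0 in late and 1.45 FPKM in early cells and a difference of -1.95 (SE 0.40, adjusted p = 0.0023).

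The replicate means of the late and early groups did not overlap for any member. Those of Prdm12 were 0.77 and 0.98 in the late group, against 2.89 and 2.75 in the early group. In early neuroblast-like and differentiating neuron-like cells alone, the Prdm12 difference was -5.16 (adjusted p = 4.8e-04) and the Ebf2 difference 0.13 (adjusted p = 0.90, limma). Ebf2 also missed the threshold corrected for transfer (0.88, adjusted p = 0.16), with log2 of the mean FPKM, with no filter and when split by Stmn2, while the other 5 members passed in each of these. In cells with no source well (16 late and 12 early cells) no member passed in limma, with differences of 4.17 for Ebf1, 2.94 for Ebf3, 2.64 for Pou4f1, 1.67 for Isl1, 0.22 for Ebf2 and -3.46 for Prdm12.

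Single cells combined the members. Neurod1-positive cells held a median of 3 of the 6, and 8 cells held all 6, against a median of 1 and no cell with all 6 among those with Neurod1 not detected. Of the 196 Neurod1-positive cells, 4 held none, 12 held 1, 35 held 2, 58 held 3, 44 held 4 and 35 held 5. With the members corrected for transfer in these cells, 27 held none, 20 held 1, 38 held 2 and 37 held 3. Then 37 held 4, 30 held 5 and 7 held all 6. Differentiating neuron-like cells held a median of 4 (51 of 64 held at least 4), and the Nefl-led cluster and early neuroblast-like cells a median of 3. In otic epithelium-like cells 65 of 152 held none and 59 held 1, and corrected for transfer 91 held none.

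Neurod1-positive cells showed 38 combinations. The commonest was Isl1 with Pou4f1, Ebf1 and Ebf3, in 22 cells (11 in each replicate), and next was the same set with Ebf2, in 21 cells (8 in replicate 1 and 13 in replicate 2). Of these, 18 and 13 cells were differentiating neuron-like, and 22 and 20 Neurod1-positive cells had the 2 combinations when corrected for transfer. The first was found in 0 and the second in 1 of the 295 cells with Neurod1 not detected. Isl1 with Pou4f1 and Ebf1 alone came next in 13 cells but in 5 when corrected, and 8 of the 13 lay in otic, neural tube or surface ectoderm-like classes. Isl1 with Ebf1 and Ebf3 but no Pou4f1 was seen in 12 cells, 7 of them in the Nefl-led cluster. Isl1 with Prdm12 and no other member was seen in 8 Neurod1-positive cells, at a median position of 6.12 on the scale of 0 to 100.

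**Figure D5:**
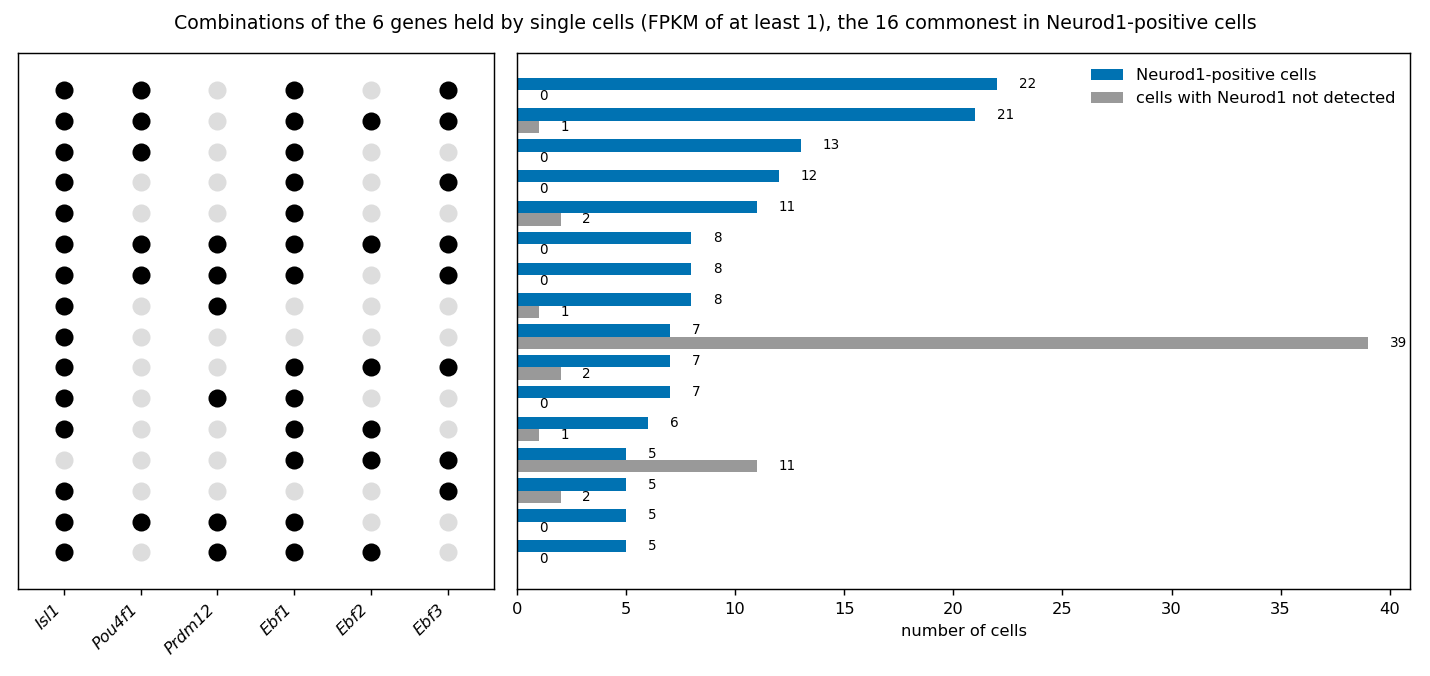
The 16 commonest combinations of the 6 members in Neurod1-positive cells, with held genes as black dots on the left and numbers of Neurod1-positive cells and of cells with Neurod1 not detected on the right. Isl1 alone is the one combination here with more than 11 cells that lack Neurod1 (39), and Isl1 with Pou4f1, Ebf1 and Ebf3 is the commonest with it (22).

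Among Neurod1-positive cells, holders of Pou4f1 were nearly all holders of Ebf1 and Isl1. Of the 86 Neurod1-positive cells with Pou4f1, 85 also held Ebf1 and 82 also held Isl1, where the product of the shares would give 67.6 and 72.4 cells. In the other direction, 69 of the 154 cells with Ebf1 had no Pou4f1. Corrected for transfer, 70 of 71 cells with Pou4f1 held Ebf1 and 67 held Isl1. Ebf3 accompanied Pou4f1 in 60 of the 86 cells (46.9 from the product of the shares). Within differentiating neuron-like cells all 52 with Pou4f1 held Ebf1 (50.4 from the product) and 49 held Isl1 (45.5 from the product). Of the 12 cells with Pou4f1 but Neurod1 not detected, 7 held no other member.

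Prdm12 and Pou4f1 were not held apart cell by cell, although their shares ran in opposite directions. Both were held by 28 Neurod1-positive cells, against 29.0 from the product of the shares, and corrected for transfer by 22 cells, against 23.4. In early neuroblast-like cells 7 of the 10 cells with Pou4f1 held Prdm12 as well, and in differentiating neuron-like cells 16 of the 52 did. Prdm12 and Ebf3 overlapped in 29 cells (36.0 from the product), and corrected for transfer in 21 (30.3). No test was made of these overlaps, since cells of a replicate share their source.

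Members held alone were mostly seen outside the neuronal classes. Isl1 was the lone member in 46 cells, of which 30 were otic epithelium-like and 13 surface ectoderm-like, and 39 lacked Neurod1. Of the 50 otic epithelium-like cells with Isl1, 18 held Neurod1 and 1 held Neurog1, and of the 36 that still held Isl1 when corrected for transfer 4 held Neurod1. Both otic clusters had Isl1 at like shares (26 of 80 and 24 of 72 cells). The set of Ebf1, Ebf2 and Ebf3 without Isl1, Pou4f1 or Prdm12 was seen in 16 cells, 6 of them neural tube progenitor-like and 5 mesenchyme-like, and 11 of the 16 lacked Neurod1.

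The genes whose levels ran closest to each member over all cells were named by Pearson correlation of log2(FPKM + 1), as a description over cells that share libraries, plates and source wells. Pou4f1 ran close to the homeobox gene Shox2 (r = 0.73), also among the 196 Neurod1-positive cells (0.66). Isl1 was closest to Neurod1 (0.77) and Ebf1 to Stmn2 (0.80), a regulator of microtubules in growing axons. Ebf3 was closest to Ebf1 (0.60), and Ebf2 to Nhlh2 (0.48), a basic helix-loop-helix factor of young neurons. Over all cells Prdm12 had the weakest neighbours, Ano1 (0.42), a chloride channel gene, and Neurog1 (0.41). Among Neurod1-positive cells it was closest to the cell-cycle gene Ccnd1 (0.49), and Ebf2 had the weakest closest gene, Elavl4 (0.38).

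Shox2 also moved between classes as Pou4f1 did. It was named for its correlation with Pou4f1 over these same cells, so this likeness is no separate support. It was held by 12 of 40 cells of the Nefl-led cluster (30%), by 49 of 64 differentiating neuron-like cells (76.6%) and by 10 of 42 early neuroblast-like cells (23.8%). Its difference by limma was -2.23 between the Nefl-led cluster and differentiating neuron-like cells (SE 0.32, adjusted p = 0.0012) and 2.38 between differentiating neuron-like and early neuroblast-like cells (SE 0.32, adjusted p = 6.8e-04). Of other listed genes, the neurogenic factor gene Neurod4 was higher by 4.86 in the Nefl-led cluster than in differentiating neuron-like cells (SE 0.31, adjusted p = 5.3e-07), and Nrp1, a semaphorin receptor gene, by 3.57 (SE 0.39, adjusted p = 9.3e-05).

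In the wider program, 34 other regulators of neuron formation or identity had a row and 20 were tested along the order. Between the late and early groups 11 were higher and 2 lower, with a median difference of 1.2, against -0.02 over all genes, of which 22.5% were called in either direction. St18 (3.45), Isl2 (3.38), Nhlh2 (3.31), Nhlh1 (2.71) and Myt1 (2.52) had the largest differences (adjusted p of 5.6e-06 to 3.5e-05), while Neurog1 (-0.59, adjusted p = 0.029) and the otic and neuronal factor Gata3 (-0.94, adjusted p = 0.026) were lower. Of 18 tested genes of a list of sensory neuron receptors, channels and axon genes, which also holds Shox2, 14 were higher and 0 lower, with a median difference of 1.34, among them Ntrk2 (3.07, adjusted p = 4.0e-06), the receptor for brain-derived neurotrophic factor, and Slc17a6 (2.1), a vesicular glutamate transporter. In Neurod1-positive against Neurod1-undetected cells 12 of the 20 regulators and 8 of the 18 genes of the second list were higher, against 3.91% of all genes, and none was lower, against 3.52%.

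Between classes fewer of these genes could be tested, because markers that define the classes were left out. In early neuroblast-like against otic epithelium-like cells 5 of 11 regulators were higher, led by Nhlh2 (5.17, adjusted p = 2.1e-06), with 3 of 17 genes of the second list, among them Gfra1 (3.17) and Dcc (1.39), where 1.81% of all genes were higher. In differentiating neuron-like against early neuroblast-like cells 0 of 11 regulators passed and 7 of 17 genes of the second list were higher, against 2.4% of all genes. In the Nefl-led cluster 1 of 11 regulators was higher than in differentiating neuron-like cells and none lower, and of the 17 genes of the second list 2 were higher and 3 lower, among them Shox2 and Slc17a6 (-1.16, adjusted p = 0.013), against 0.953% higher and 0.707% lower over all genes.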

How the data were processed

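Per the labels' protocols, tdTomato+ cells were sorted into 96-well plates, reverse transcribed with a SMARTer Ultra Low Input kit and made into Nextera XT libraries. The submitters' processing notes name TopHat, Cufflinks, Bowtie2, Bowtie, SAMtools, cutadapt and FastQC and genome build mm10, without versions. The values that the authors deposited are read here as log2 of FPKM + 1. Symbols came from GENCODE M21 (19630 of 19659 rows matched), and 132 rows of repeated identifiers were left out.

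Values were averaged per group and replicate, with the pseudocount of 1, and fitted with limma 3.58.1 in R 4.3.3 (replicate as a block, empirical Bayes with trend, two-sided). Median total degrees of freedom were 15.3 in the Neurod1 fit and 15.6 in the class fit, most of them from the spread shared over genes. Genes held by at least 5% of cells were tested, without Neurod1 and the score's genes or, between classes, without the markers, with calls made below an adjusted p of 0.05 (Benjamini-Hochberg over all tested genes). The scripts were tested on simulated data. Clusters came from the Leiden algorithm (leidenalg 0.10.2, resolution 1, 15 components, 15 neighbours) on 80 of 103 listed markers, those held by enough cells. Doublets were not called. Results that need items withheld here are not reported, among them a planned subset of cells in which Ebf2, Ebf3 and Prdm12 lost their call for Neurod1 and Ebf2 its call between the late and early groups. That subset is not among the alternative values counted below. Shares, combinations and correlations over cells are descriptions.

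Named are the 6 members, the genes most like each by Pearson correlation, and called genes of the 2 gene lists. The members and lists were chosen with earlier results of these data known, so no count over them is independent support.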

Additional observations from a re-analysis of the deposited data

How the results depend on the processing

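Of the 300 alternative values of the member differences that have a test and are reported here, 254 kept their direction and their side of the threshold. Of the others 34 lost the call, 6 gained one and 6 changed sign. Of 60 values without replicate 1 or 2, which have no test because 1 mean per group is left, 59 kept their sign and 1 did not. Each change of sign was of Ebf2 in comparisons where it was not called: between differentiating neuron-like and early neuroblast-like cells (-0.02 as reported) it was 0.037 with upper-quartile scaling, 0.33 without replicate 2 (-0.37 without replicate 1), 0.61 in cells with no source well, 0.0053 corrected for transfer and 0.063 at resolution 1.5, and between the Nefl-led cluster and differentiating neuron-like cells (0.28) it was -0.13 with log2 of the mean FPKM and -1.60 in cells with no source well. Genes called could not be counted without a replicate.

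By limma, 2297 genes were called between the late and early groups and 760 between Neurod1-positive and Neurod1-undetected cells. Between classes, 698 were called for early neuroblast-like against otic epithelium-like cells and 279 for differentiating neuron-like against early neuroblast-like cells. For the Nefl-led cluster against differentiating neuron-like cells 169 were called. Without the replicate block, which pairs groups of the same replicate, the 5 counts in this order were 1979, 605, 616, 258 and 161, and Ebf2 in Neurod1-positive cells lost its call. In cells with no source well they were 1, 20, 38, 0 and 18. With log2 of the mean FPKM the counts of 760, 279 and 169 became 389, 104 and 91, and with no filter that of 760 became 327. Split by Stmn2 the counts of 2297 and 760 became 587 and 407. In early neuroblast-like and differentiating neuron-like cells alone, a setting chosen after seeing the data, 2297 became 1041. The cause of these changes was not tested. At resolution 0.6 early neuroblast-like cells had no class of their own, so the 2 comparisons that use that class gave no value there.

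Of the shares of cells with a member, all 6 fell below their interval at an FPKM of at least 10 (12.22 to 38.7%), and corrected for transfer 4 did, Isl1 (35.8%), Prdm12 (14.5%), Ebf1 (33.0%) and Ebf2 (20.8%). Isl1 was held by 39.2% of replicate 1 and 48.8% of replicate 2 cells, and Ebf2 by 20.3 and 28.7%. No read depth is known, so a value of 0 cannot be told from a missed transcript. A missed transcript, or one listed in a cell through sharing between wells, changes the combination a cell is counted in.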
